A study of Mus musculus with 4 samples.

Results

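The 9 imprinted growth genes Igf2, H19, Dlk1, Meg3, Mest, Peg3, Plagl1, Grb10 and Igf2r were followed across 4 Affymetrix mouse expression arrays. They were chosen by name, and the platform annotation gave 8 of them at least 1 probe set with a single gene symbol, 29 probe sets in all. H19 had no probe set with a single symbol, so no H19 level is given. The whole table held 18193 genes with a single-gene probe set.

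Each array measured the RNA of 1 culture of fetal liver progenitor cells from mice without p53 (p53-/-). A culture labelled H-RasV12 carries the constitutively active mutant of a RAS signalling switch, one labelled myr-Akt carries a kinase held at the membrane by myristoylation, and one labelled c-Myc carries a growth-promoting transcription factor. The fourth is labelled non-transformed. All 4 cultures lacked p53, the non-transformed one included, and all are labelled as grown in the same medium with EGF at 20 ng/ml, HGF at 50 ng/ml and 10% serum. The sources used here do not give the age of the fetuses, the vector or promoter behind each oncogene, or whether a culture is a clone or a pool. With 1 array per group, no value below has an error or a p-value, and no difference could be set against a spread between cultures. Precision is limited by having so few arrays.

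Imprinted genes are expressed mainly from the copy inherited from one parent, a choice held by DNA methylation at control regions. Many of them act on fetal growth: paternally expressed genes such as Igf2 tend to promote it, and maternally expressed ones such as Igf2r and H19 tend to restrain it. Several are abundant in fetal liver, decline after birth and can be expressed again in liver tumours. The arrays measure the RNA of both parental copies together, so nothing here bears on which copy was read.

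Signals are the authors' MAS5 intensities on a linear scale. A signal below 20% of an array's trimmed mean (100.001) was taken as the floor, and values at the floor have no order. A difference is the log2 of a signal on a transformed array over that on the non-transformed array, from the gene's brightest probe set, and 1 or more in size (2-fold) was counted. All 8 measured genes were above the floor on all 4 arrays with that probe set. Of their 29 probe sets, 25 exceeded the floor somewhere.

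As a check of the labels, the Myc signal was 1747 on the H-RasV12 array, 639.7 on the myr-Akt array and 420.6 on the c-Myc array, against 2285 on the non-transformed array. The culture labelled c-Myc thus had the lowest signal for that gene, and the sources used here do not say whether the probe set detects the introduced copy. Akt1 was at 2760, 2834 and 2991 on the 3 transformed arrays, against 1870 on the non-transformed array. Hras and Trp53 were not analysed here. Each direction given for an array therefore rests on its label. Control probe sets for beta-actin had 5′ to 3′ signal ratios between 0.846 and 0.907, and 9492 to 10216 genes were above the floor on an array.

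Promoter sequences are shown for the 4 genes whose levels differed most or in parallel in the results that follow. Igf2 and Plagl1 had the same order of arrays, and Dlk1 and Meg3 are neighbours in 1 imprinted cluster. The windows run from 250 bases before to 50 bases after an annotated transcript start and come from RefSeq (GRCm38.p6), in which 8 of the 9 genes had a window, H19 being the exception. Capitals mark matches on either strand to 4 motifs: CACGTG, the core E-box that MYC with MAX can bind; TGACGTCA, the cAMP response element; TATAAA, the TATA box; and CCGCCC, the GC box. Igf2 has 4 annotated windows and the one for its most downstream start is shown, at chr7:142657447-142657746 on the minus strand. The Plagl1 window is chr10:13090582-13090881, that of Dlk1 is chr12:109452573-109452872 and that of the first of 2 Meg3 starts is chr12:109540746-109541045, all on the plus strand.
Igf2: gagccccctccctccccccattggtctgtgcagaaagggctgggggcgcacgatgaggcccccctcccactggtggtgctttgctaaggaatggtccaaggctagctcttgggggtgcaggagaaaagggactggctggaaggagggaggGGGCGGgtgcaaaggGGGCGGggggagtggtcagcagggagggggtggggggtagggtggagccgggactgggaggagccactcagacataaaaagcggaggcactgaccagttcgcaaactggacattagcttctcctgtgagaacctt
Plagl1: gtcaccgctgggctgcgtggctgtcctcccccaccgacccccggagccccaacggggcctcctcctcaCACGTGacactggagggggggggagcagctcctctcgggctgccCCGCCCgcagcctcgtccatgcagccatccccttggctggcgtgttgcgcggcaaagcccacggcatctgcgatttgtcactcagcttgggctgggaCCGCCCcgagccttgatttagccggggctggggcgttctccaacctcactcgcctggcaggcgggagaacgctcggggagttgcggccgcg
Dlk1: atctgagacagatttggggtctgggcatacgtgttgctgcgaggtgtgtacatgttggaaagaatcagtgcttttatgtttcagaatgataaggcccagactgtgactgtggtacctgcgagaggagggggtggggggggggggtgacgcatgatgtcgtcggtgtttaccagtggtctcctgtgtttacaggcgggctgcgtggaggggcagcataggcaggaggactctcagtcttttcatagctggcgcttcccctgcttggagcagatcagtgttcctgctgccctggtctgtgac
Meg3: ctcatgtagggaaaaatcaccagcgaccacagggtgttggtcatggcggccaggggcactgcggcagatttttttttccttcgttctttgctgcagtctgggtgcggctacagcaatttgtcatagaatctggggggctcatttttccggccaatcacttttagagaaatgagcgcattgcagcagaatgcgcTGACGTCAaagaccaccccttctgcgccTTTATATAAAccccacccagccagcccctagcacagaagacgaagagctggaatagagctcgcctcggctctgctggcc

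In the Meg3 window TGACGTCA begins 57 bases before the start and TATAAA 25 bases before it, where it overlaps a match on the other strand. The Plagl1 window holds 1 CACGTG and 2 CCGCCC, the Igf2 window 2 CCGCCC on the opposite strand, and the Dlk1 window none of the 4 motifs. Among all 32851 promoter windows of the table, 7.15% held CACGTG, 1.79% TGACGTCA, 13.6% TATAAA and 35.7% CCGCCC. Over the 15 windows of the 8 genes, CACGTG was also in the Igf2r window and TGACGTCA also in the Peg3 window. CCGCCC was in 8 of the 15, those of Grb10, Igf2r and Mest among them. The windows of the 8 genes held a median of 13 CG dinucleotides (range 1 to 45), against a median of 7 over all windows. The share with 20 or more was alike, at 26.7% of the 15 windows and 26.5% of all windows. A match describes the letters in the window and says nothing of binding.

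As a group, these genes differed between arrays in both directions. On the H-RasV12 array, 2 of 8 differed at least 2-fold either way (8.35% of the 10679 genes tested): 1 was higher than non-transformed (2.08% of genes tested) and 1 lower (6.27%). On the myr-Akt array, 4 of 8 differed (17.6% of genes tested), 2 of them higher (4.90%) and 2 lower (12.7%). On the c-Myc array, 4 of 8 differed (15.8%), 3 of them higher (4.42%) and 1 lower (11.3%). The median log2 difference of the 8 genes was -0.11 for H-RasV12, 0.35 for myr-Akt and 0.36 for c-Myc, beside 0.00, -0.02 and 0.00 over all genes tested. Over the 4 arrays, 6 of the 8 genes had a range of 2-fold or more, as did 28.1% of all genes tested. The 3 comparisons share the non-transformed array, so their values are set side by side and are not independent.

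**Figure D1:**
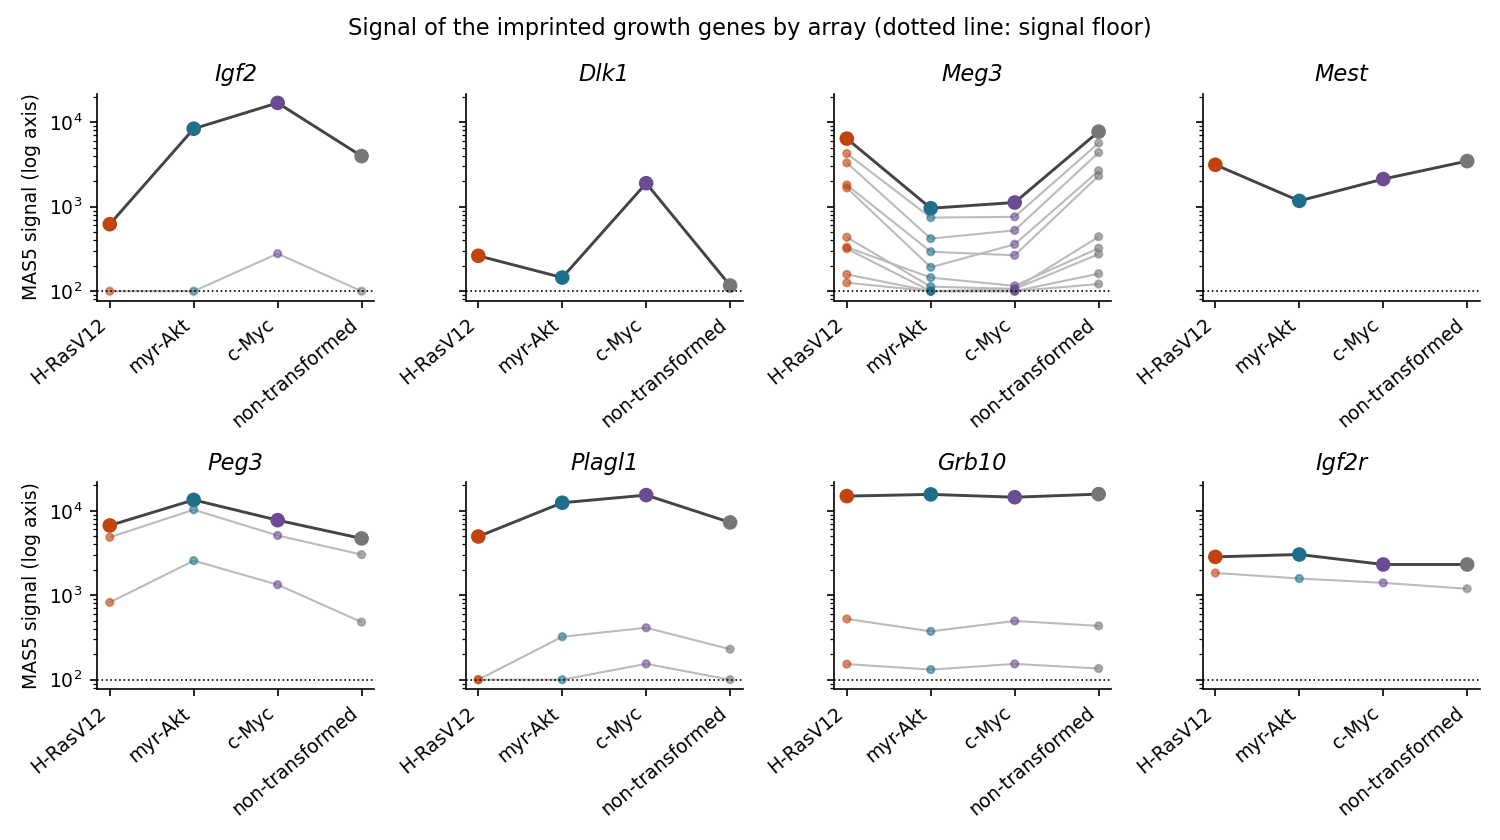
MAS5 signal (log axis) of the 8 genes on the 4 arrays, 1 point per array, with the brightest probe set in large points and dark lines and the gene's other probe sets above the floor in small points and pale lines; signals below the floor are drawn at it (dotted line). Igf2 spans 621 to 16943, Dlk1 stands out on the c-Myc array, Meg3 is low on the myr-Akt and c-Myc arrays in every probe set drawn, and Grb10 is nearly level.

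Igf2 encodes insulin-like growth factor 2, the main fetal growth ligand of the family. Its signal was 621 on the H-RasV12 array, 8384 on the myr-Akt array and 16943 on the c-Myc array, against 3975 on the non-transformed array. The H-RasV12 culture was thus lowest, 6.40 times below non-transformed (log2 difference -2.68), while myr-Akt was 2.11 times (1.08) and c-Myc 4.26 times (2.09) above it. The highest and lowest arrays differed 27.3-fold, the 31st largest range among 10679 genes. Between transformed cultures, H-RasV12 was 13.5 times below myr-Akt and 27.3 times below c-Myc, and c-Myc was 2.02 times above myr-Akt. The second Igf2 probe set was dim, at 5.80, 96.2 and 278 on the H-RasV12, myr-Akt and c-Myc arrays, against 42.3 on the non-transformed one. Only its c-Myc value was above the floor, giving a difference of at least 1.48 on the log2 scale. The mean over both probe sets, with the dim one at the floor on all but the c-Myc array, gave -1.34 for H-RasV12, 0.54 for myr-Akt, which is under 2-fold, and 1.78 for c-Myc.

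Plagl1 encodes a zinc-finger transcription factor known in mice to act on other imprinted genes, Igf2 among them. Its signal was 4954 on the H-RasV12 array, 12442 on the myr-Akt array and 15323 on the c-Myc array, against 7277 on the non-transformed array. The arrays stood in the same order as for Igf2, over a smaller range of 3.09-fold. Its log2 differences were -0.55 for H-RasV12, 0.77 for myr-Akt and 1.07 for c-Myc, of which the last passed 2-fold. The brightest probe set is of a kind (_x_at) that can bind more than 1 transcript. A dimmer one without that suffix gave at least 1.20 lower on the log2 scale for H-RasV12, which reached the floor, and 0.49 and 0.84 for myr-Akt and c-Myc, so that the c-Myc call ends with it. The c-Myc array was highest in all 3 probe sets.

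Igf2r encodes the receptor that takes up IGF2 and carries it to lysosomes. Its signal was 2845 on the H-RasV12 array, 3035 on the myr-Akt array and 2312 on the c-Myc array, against 2311 on the non-transformed array. No difference reached 2-fold, with log2 values of 0.30, 0.39 and 0.00, and a second probe set gave 0.62, 0.40 and 0.23. The 2 probe sets put the arrays in different orders above the non-transformed one. Airn, the antisense RNA at the Igf2r locus, was named after its values were seen. It was lower by less than 2-fold on each transformed array, with log2 differences of -0.35, -0.71 and -0.62.

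Grb10 encodes an adaptor that restrains insulin and IGF1 receptor signalling. It was the most level of the 8 genes, at 14910 on the H-RasV12 array, 15622 on the myr-Akt array and 14463 on the c-Myc array, against 15736 on the non-transformed array. Its range of 1.09-fold was among the smallest of the genes tested, at rank 10419 of 10679. The 2 dimmer Grb10 probe sets, whose signals lay between 132 and 524, had log2 differences between -0.22 and 0.27.

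**Figure D2:**
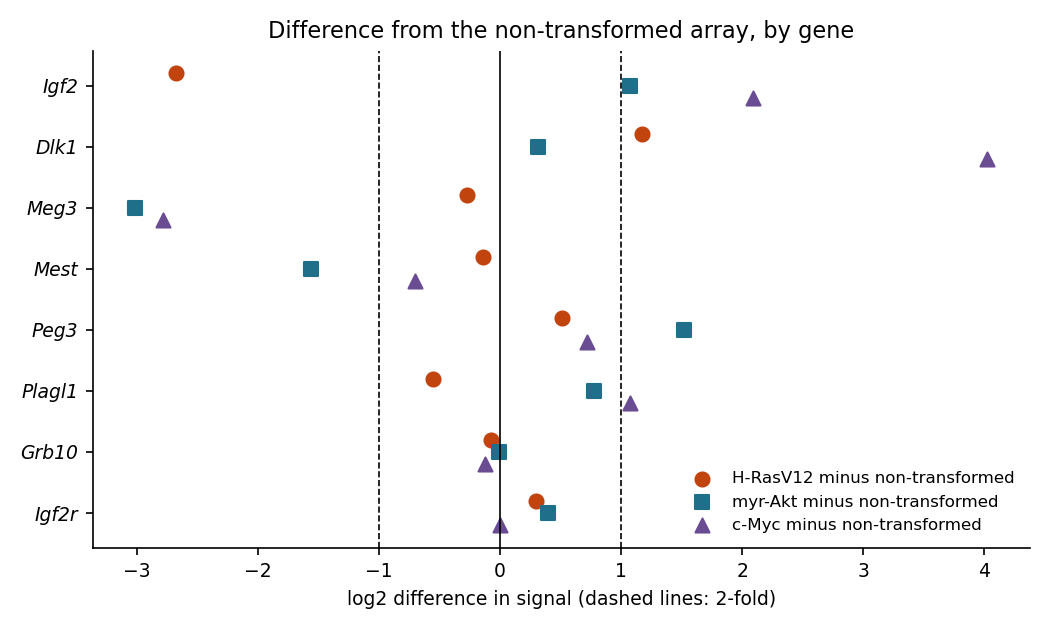
Log2 difference in signal of each transformed array from the non-transformed array for the 8 genes (brightest probe set; circles H-RasV12, squares myr-Akt, triangles c-Myc; dashed lines at 2-fold). Igf2 lies at -2.68 for H-RasV12 and at 1.08 and 2.09 for myr-Akt and c-Myc, Dlk1 at 4.02 for c-Myc, and Meg3 near -3 for myr-Akt and c-Myc.

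Dlk1 encodes a transmembrane protein of the DLK and Notch ligand family that marks hepatoblasts in fetal mouse liver. It had a signal of 262 on the H-RasV12 array, 145 on the myr-Akt array and 1898 on the c-Myc array, against 117 on the non-transformed array, which was just above the floor. On the c-Myc array it was 16.3 times above non-transformed, the second highest difference of the 10679 genes tested in that comparison, and 13.1 times above the myr-Akt array. The log2 difference of 1.17 for H-RasV12 passed 2-fold and that of 0.31 for myr-Akt did not. All 3 differences rest on the low non-transformed signal. With the floor at 40% of the trimmed mean the H-RasV12 difference was 0.39 and the c-Myc difference 3.25, and with a pseudocount and no floor they were 0.74 and 3.20. The mean over both probe sets gave 0.58 for H-RasV12 and 2.01 for c-Myc. This probe set (_s_at) can bind more than 1 transcript, and the other Dlk1 probe set was below the floor on all 4 arrays, at 50.9 or less.

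Meg3 is a maternally expressed long noncoding RNA that neighbours Dlk1. It had a signal of 6401 on the H-RasV12 array, 959 on the myr-Akt array and 1122 on the c-Myc array, against 7749 on the non-transformed array. The arrays fell into pairs: myr-Akt and c-Myc were 8.08 and 6.91 times below non-transformed, while H-RasV12 was 1.21 times below it. Of 11 Meg3 probe sets, 10 exceeded the floor somewhere, and in all 10 both the myr-Akt and the c-Myc array were below both others. Where both arrays were above the floor, the log2 difference ran from -3.80 to -1.16 for myr-Akt (7 probe sets) and from -3.13 to -1.37 for c-Myc (8 probe sets). For H-RasV12 it ran from -0.67 to 0.21 over 10 probe sets, 7 of them negative and 3 positive. The mean over all probe sets, some of them at the floor, gave -1.97 for myr-Akt and -1.88 for c-Myc. Several mesenchymal and stellate markers were low on these same arrays, while others were low on the H-RasV12 array too, or on that array alone. Their values are given at the end, and their part in the Meg3 difference was not tested.

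Rian and Mirg are maternally expressed noncoding RNAs that lie in the same cluster as Meg3 and host small RNAs. Rian had a signal of 2169 on the H-RasV12 array, 384 on the myr-Akt array and 408 on the c-Myc array, against 2466 on the non-transformed array, so it separated the same 2 pairs of arrays. Its log2 differences were -2.68 for myr-Akt, -2.60 for c-Myc and -0.19 for H-RasV12. Mirg was at 322 on the H-RasV12 array and below the floor on the myr-Akt and c-Myc arrays, against 318 on the non-transformed array, which is at least 3.18 times lower on both. On the c-Myc array, then, Dlk1 was high where Meg3, Rian and Mirg were low, whereas on the myr-Akt array these 3 were also low and Dlk1 was at 145. In all 4 Rian probe sets above the floor, both low arrays were below the other two. Rtl1 and Dio3, also of that cluster, were not analysed here.

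**Figure D3:**
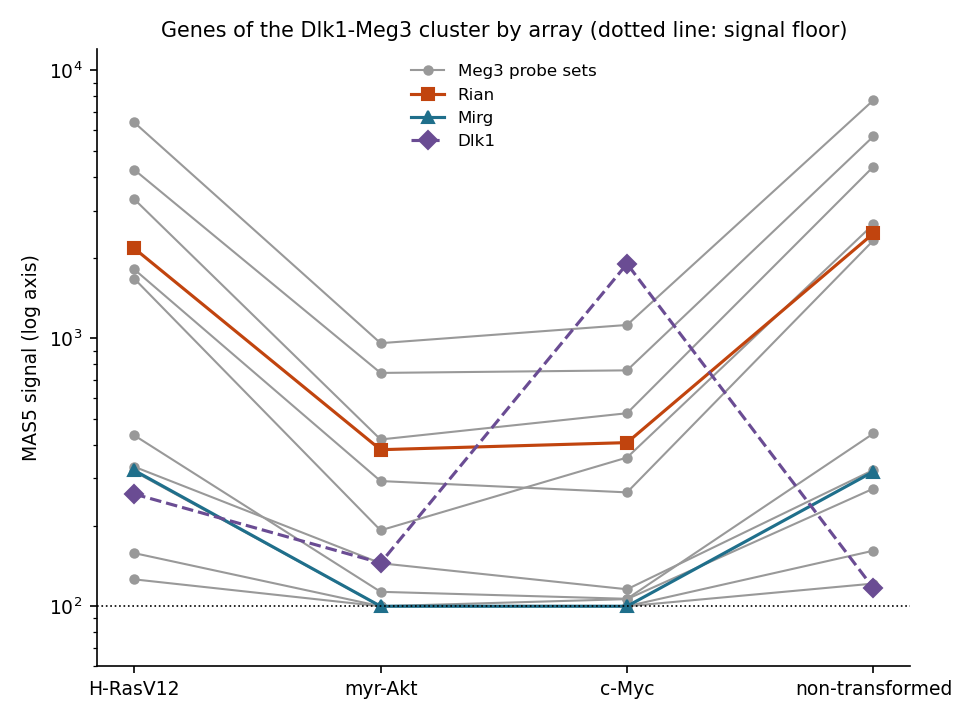
MAS5 signal (log axis) on the 4 arrays of the 10 Meg3 probe sets above the floor, of Rian, Mirg and Dlk1 (1 line each; signals below the floor are drawn at the dotted line). The Meg3, Rian and Mirg lines dip on the myr-Akt and c-Myc arrays, and Dlk1 peaks at 1898 on the c-Myc array.

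Mest encodes a protein of the alpha/beta hydrolase fold and is paternally expressed. Its 1 probe set read 3139 on the H-RasV12 array, 1173 on the myr-Akt array and 2127 on the c-Myc array, against 3471 on the non-transformed array. The myr-Akt array was lowest, 2.96 times below non-transformed (-1.57). The c-Myc and H-RasV12 differences, -0.71 and -0.15, did not reach 2-fold.

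Peg3, a paternally expressed zinc-finger protein, had a signal of 6696 on the H-RasV12 array, 13445 on the myr-Akt array and 7730 on the c-Myc array, against 4701 on the non-transformed array. It was above non-transformed on each transformed array, by log2 differences of 0.51, 1.52 and 0.72, and only that of myr-Akt passed 2-fold. The 2 other probe sets above the floor gave 1.77 and 2.42 for myr-Akt. In all 3, the myr-Akt array was highest and the non-transformed array lowest. On the c-Myc array the dimmest of the 3 gave 1.47, a 2-fold difference that the other 2 did not show.

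**Figure D4:**
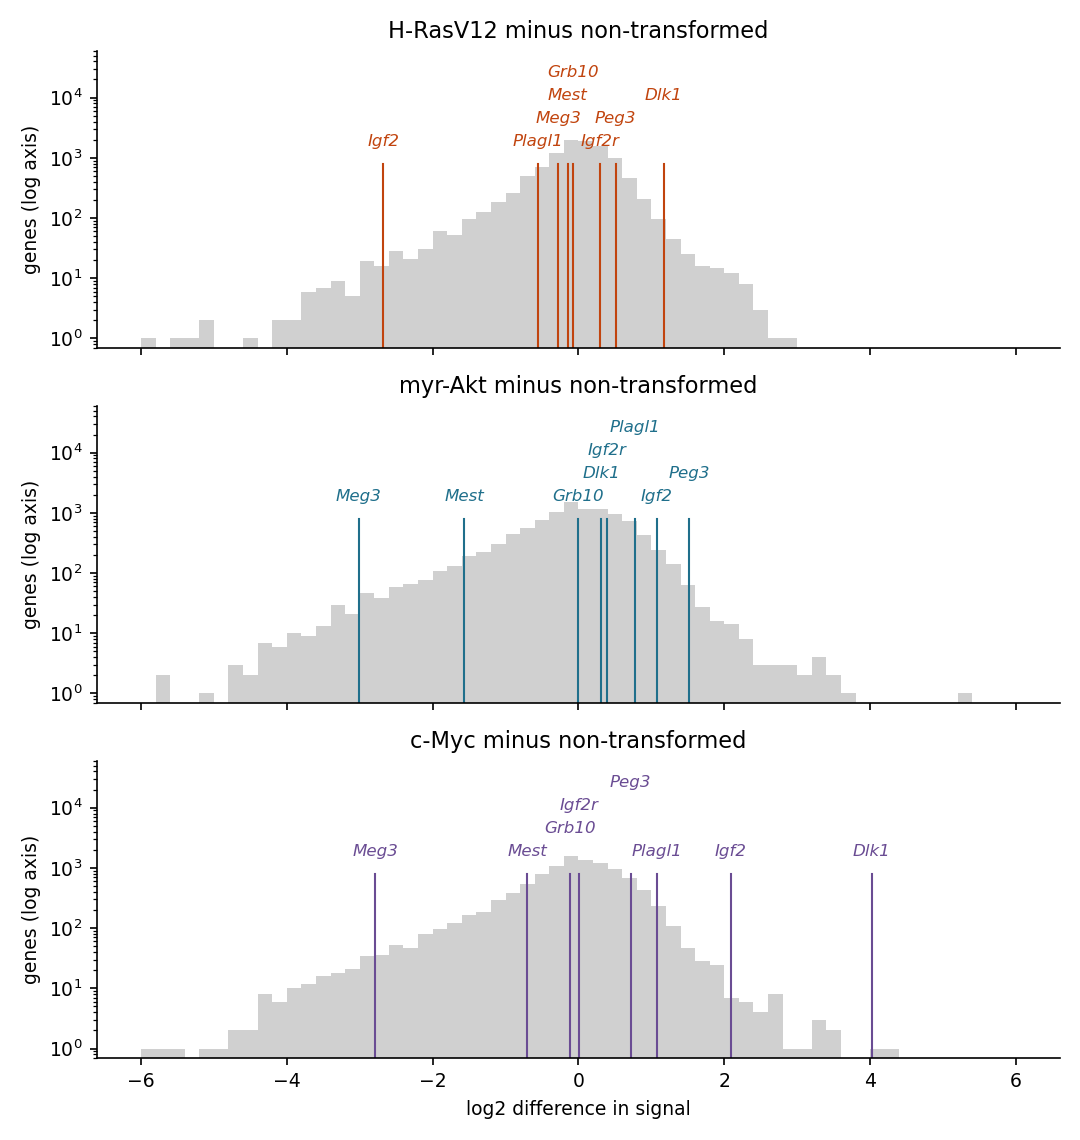
Number of genes (log axis) by log2 difference from the non-transformed array for the 10679 genes tested, 1 panel per transformed array, with the 8 genes marked by lines. Dlk1 at 4.02 is near the upper end of the c-Myc panel, Igf2 at -2.68 in the lower tail of the H-RasV12 panel and Meg3 at -3.01 in that of the myr-Akt panel.

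The genes nearest in pattern to each of the 6 members with a 2-fold range were taken by Euclidean distance between log2 signals centred on their mean over the 4 arrays, among 8964 other genes above the floor on all 4. These distances, over only 4 arrays, are a description. Rian was the second nearest of all to Meg3, at a distance of 0.25, after Wipi1, an autophagy gene (0.22), and before Mt2, a metallothionein gene (0.27). Nearest to Igf2 was Nrep at 0.52, followed by Bnc1, a zinc-finger gene (0.98), and Prr15 (1.00). Nrep had a signal of 166 on the H-RasV12 array, 3206 on the myr-Akt array and 3959 on the c-Myc array, against 1083 on the non-transformed array. The genes nearest to Dlk1 were farther off: Myl7, a myosin light chain gene (1.30), Shmt1, a serine hydroxymethyltransferase gene (1.78), and Spint2, a protease inhibitor gene (1.79). Mest was nearest to Rdm1 (0.13), Crlf2 (0.14) and Ssh1 (0.16). Peg3 was nearest to Gclm (0.14), Ythdc2 (0.16) and Qrsl1 (0.18), and Plagl1 to Gpr89 (0.11), 2310067E19Rik (0.13) and Strbp (0.13).

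Beyond these genes, a list of 50 other imprinted mouse genes gave 42 with a single-gene probe set, and 28 of those exceeded the floor somewhere. At least 2-fold higher were 0 of 28 on the H-RasV12 array, 5 on the myr-Akt array and 2 on the c-Myc array, and lower were 3, 7 and 7. The shares of all genes tested given above for the same calls were 2.08%, 4.90% and 4.42% higher and 6.27%, 12.7% and 11.3% lower. The list's median differences were -0.04, -0.09 and -0.15. Taking the mean over probe sets, 0 were lower for H-RasV12 and 3 for each of myr-Akt and c-Myc.

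Cdkn1c, an inhibitor of cyclin-dependent kinases that lies near Igf2 and restrains growth, was below the floor on the H-RasV12 array and at 1016 on the myr-Akt array and 467 on the c-Myc array, against 103 on the non-transformed array. Its log2 differences of 3.31 and 2.18 for myr-Akt and c-Myc run the same way as those of Igf2. Both rest on a non-transformed signal just above the floor. On the H-RasV12 array, where Igf2 differed by -2.68, the floor bounds the Cdkn1c difference only at -0.04. Ddc, which encodes the decarboxylase of aromatic amino acids and lies next to Grb10, was at 145, 1851 and 1110 on the H-RasV12, myr-Akt and c-Myc arrays, against 481 on the non-transformed array. As for Igf2, the H-RasV12 array was lowest and the myr-Akt and c-Myc arrays were above non-transformed. Cobl, on the other side of Grb10, was at 182, 143 and 180.5 on those arrays, against 571 on the non-transformed array, so it was over 2-fold lower on all 3 while Grb10 was level.

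Ndn, which encodes the growth-restraining protein necdin, was at 437 on the H-RasV12 array, 2294 on the myr-Akt array and 323 on the c-Myc array, against 854 on the non-transformed array. It was thus higher for myr-Akt (1.42) and lower for c-Myc (-1.40), opposite directions on the arrays that were alike for Meg3, and its 5 probe sets gave 1.42 to 1.75 for myr-Akt and -1.56 to -0.92 for c-Myc. Nap1l5 (1.28) and Jade1 (1.05) were also higher on the myr-Akt array, and Gatm (-1.28), an enzyme of creatine synthesis, and Trappc9 (-1.13) lower. Nnat, which encodes the membrane protein neuronatin, was lower on the myr-Akt (-2.19) and c-Myc (-1.92) arrays, as was Sgce, a sarcoglycan gene (-1.45 and -1.49). Blcap, within whose locus Nnat lies, was lower on the c-Myc array (-1.12), and Ppp1r9a on the H-RasV12 array (-1.18). Nnat, Blcap and Sgce rest on _a_at probe sets. For Sgce, the brightest one without such a suffix was at the floor on the myr-Akt and c-Myc arrays, which bounds the difference only at -0.15.

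**Figure D5:**
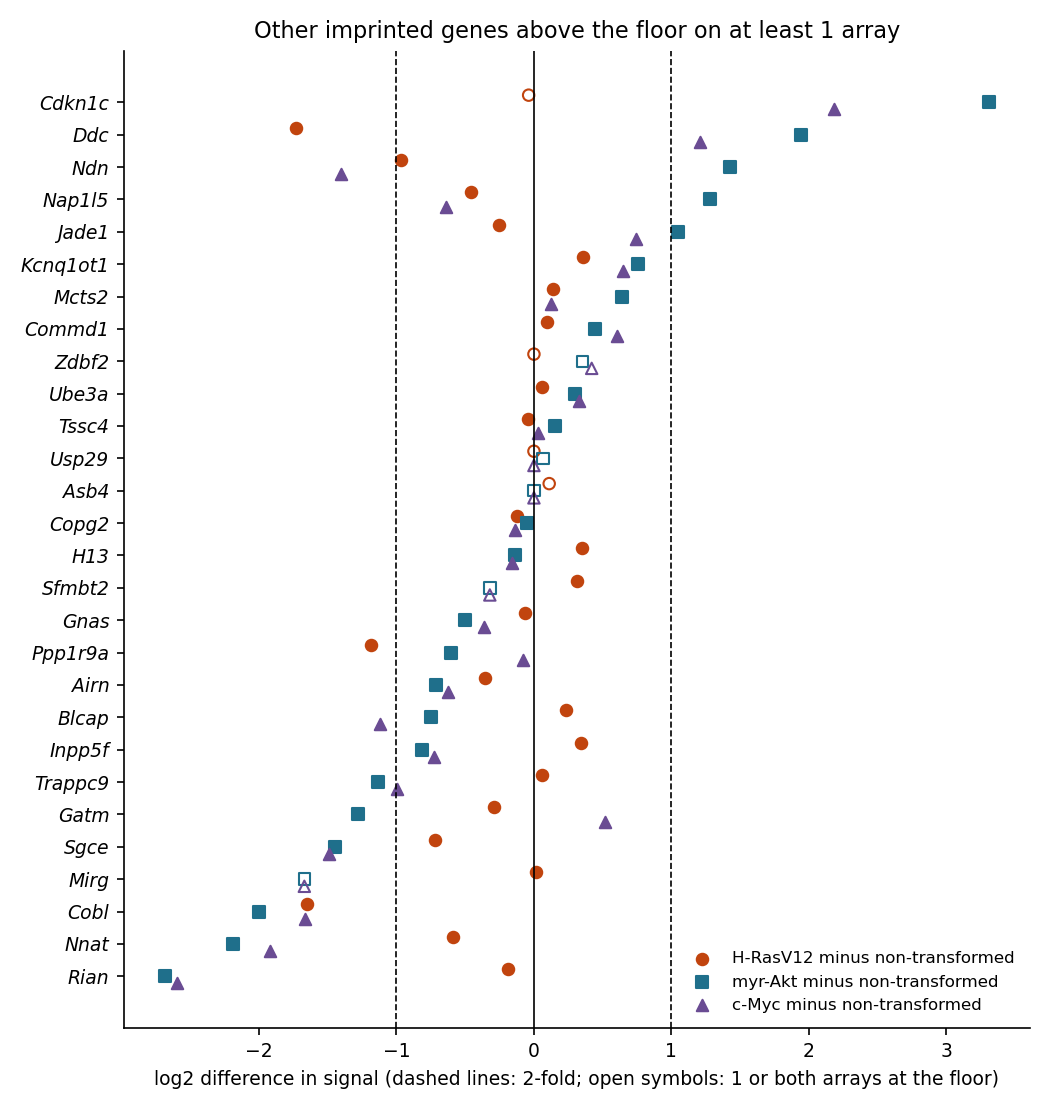
Log2 difference from the non-transformed array for the 28 other imprinted genes above the floor on at least 1 array, ordered by the myr-Akt value (circles H-RasV12, squares myr-Akt, triangles c-Myc; open symbols where 1 or both arrays were at the floor; dashed lines at 2-fold). Cdkn1c and Ddc lie highest for myr-Akt, at 3.31 and 1.94, and Rian lowest, at -2.68.

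Among 15 measured genes of the IGF axis, 1 was at least 2-fold higher on each transformed array, though not the same gene on all of them. Lower were 3, 6 and 4 on the H-RasV12, myr-Akt and c-Myc arrays. As shares, 6.67% were higher on each array and 20%, 40% and 26.7% lower. Of all genes tested, 2.08%, 4.90% and 4.42% were higher and 6.27%, 12.7% and 11.3% lower. Igf1r, the receptor through which IGF2 signals, was at 3743, 1268 and 3286 on those arrays, against 3429 on the non-transformed array, so that it was 2-fold lower on the myr-Akt array alone (-1.44). The binding proteins had the largest ranges besides Hmga2 (-3.63 for myr-Akt and -2.71 for c-Myc). Igfbp2 was lowest on the H-RasV12 array (-3.72), as was Igfbp6 (-2.59), like Igf2 itself, whereas Igfbp7 was lowest on the myr-Akt array (-2.73). Unlike Igf2, Igfbp2 and Igfbp6 were also below non-transformed on the myr-Akt (-0.96 and -1.65) and c-Myc (-1.24 and -1.35) arrays. Igfbp5 was at 4052 on the myr-Akt array, against 18.3 on the non-transformed array, at least 40.5 times higher.

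For the Notch pathway, which Dlk1 is known to modulate, 8 of 12 genes were measured. Of these, 1, 1 and 2 were at least 2-fold higher and 0, 2 and 1 lower on the H-RasV12, myr-Akt and c-Myc arrays. Beside these counts, 2.08%, 4.90% and 4.42% of all genes tested were higher and 6.27%, 12.7% and 11.3% lower. Hey1, a Notch target gene, was higher on the myr-Akt (2.01) and c-Myc (1.07) arrays, while Hes1, another, stayed under 2-fold (0.49 and 0.75). Dlk2, the close relative of Dlk1, went the other way on the c-Myc array (-0.92) and was higher on the H-RasV12 array (1.10). The ligand gene Jag2 was higher on the c-Myc array (1.31), the receptor gene Notch1 lower on the myr-Akt (-1.25) and c-Myc (-1.14) arrays, and the ligand gene Jag1 lower on the myr-Akt array (-1.22).

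A list of genes that act on DNA methylation, chromatin or imprints had medians above 0 on each transformed array. It holds de novo methyltransferases and methylcytosine oxidases besides genes that maintain methylation. Of 14 measured, 0, 3 and 2 were at least 2-fold higher on the H-RasV12, myr-Akt and c-Myc arrays and 1, 0 and 0 lower, with medians of 0.43, 0.51 and 0.57. As shares, 21.4% were higher on the myr-Akt array and 14.3% on the c-Myc array, beside 4.90% and 4.42% of all genes tested, and 7.14% were lower on the H-RasV12 array, beside 6.27%. Uhrf1, which brings the maintenance methyltransferase to newly copied DNA, differed by 0.79, 1.13 and 1.33, and Dnmt1, that enzyme, by 0.82, 0.67 and 0.81. The de novo methyltransferase gene Dnmt3b was at least 2.83 times higher on the myr-Akt array and 2.72 times on the c-Myc array, and Dnmt3a was lower on the H-RasV12 array (-1.17). Tet3, which oxidises methylcytosine, was at least 2.30 times higher on the myr-Akt array. Zfp57, a zinc-finger protein that binds methylated imprints, differed by -0.05, -0.80 and -0.25 at signals of 101 to 176.

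The RNA is that of whole cultures, in which fewer cells of a type and less RNA per cell cannot be told apart. Markers of several cell types also differed between the arrays. All 5 mesothelial markers, among them Upk3b and Gpm6a, were at least 2-fold lower on the H-RasV12 array (6.27% of all genes tested), where Igf2 was lowest. Their summed signal was 6273 on that array, 25349 on the myr-Akt array and 24838 on the c-Myc array, against 32858 on the non-transformed array. Msln, at 3096 a large part of the H-RasV12 sum, was lower still on the myr-Akt and c-Myc arrays. It differed by -1.34 on the H-RasV12 array, -5.04 on the myr-Akt array and -4.49 on the c-Myc array. The other 4 stayed under 2-fold on the myr-Akt and c-Myc arrays. Of 10 mesenchymal markers above the floor on any array, 5, 7 and 7 were at least 2-fold lower on the H-RasV12, myr-Akt and c-Myc arrays. The same call took 6.27%, 12.7% and 11.3% of all genes tested. Median differences of these markers were -0.74, -2.25 and -2.63. Their summed signal (all 11 listed), mostly that of collagen genes such as Col1a2 and Col3a1 and of Dcn, was 41685, 44876 and 27758, against 93337. Prrx1, Snai2 and Thy1 were over 2-fold lower on the myr-Akt and c-Myc arrays, where Meg3 and Rian were low. They differed by 0.66, 0.32 and 0.54 on the H-RasV12 array. Other mesenchymal markers did not share this pattern (values for H-RasV12, myr-Akt and c-Myc). Dcn (-5.93, -0.14 and -0.43) and Col3a1 (-1.998, -0.47 and -0.91) were over 2-fold lower on the H-RasV12 array alone. Col1a1 (-1.80, -2.25 and -2.54), S100a4 (-3.68, -4.003 and -3.06) and Mmp2 (-1.13, -3.87 and -3.27) were so on each transformed array. Twist1 (0.24, -2.25 and -0.40) was so on the myr-Akt array alone, and Col1a2 (-0.36, -0.83 and -2.94) on the c-Myc array alone. The summed signal of 12 hepatoblast markers was 20451, 2537 and 4493, against 8775. On the H-RasV12 array it was mostly that of Krt18, Apoa1 (4300) and Krt8 (3441). Apoa1 and Krt8 were at 638 and 601 on the non-transformed array and below the floor on the myr-Akt and c-Myc arrays. Of 9 hepatoblast markers above the floor on any array, 5, 0 and 0 were at least 2-fold higher and 1, 3 and 3 lower. Of all genes tested, 2.08%, 4.90% and 4.42% were higher and 6.27%, 12.7% and 11.3% lower. The defining hepatoblast genes Alb, Afp and Hnf4a were below the floor on the myr-Akt, c-Myc and non-transformed arrays. On the H-RasV12 array Alb was at 168, Afp at 568 and Hnf4a at 169. Other hepatoblast markers were present: 9, 2 and 3 of 12 were above the floor on the H-RasV12, myr-Akt and c-Myc arrays, against 5 on the non-transformed array. The brightest, Krt18, was at 10745, 321 and 337 on the transformed arrays, against 3690 on the non-transformed array, and Gpc3 was at 312, 1890 and 3904, against 3576. The summed signal of 5 biliary markers was 5176, 2160 and 3500, against 4478, and that of 8 stellate markers, nearly all of it Acta2, was 29831, 20880 and 27020, against 38174. The median differences of the 6 stellate markers above the floor on any array were -0.41, -1.74 and -1.54. Of these 6, 1, 3 and 3 were at least 2-fold lower (6.27%, 12.7% and 11.3% of all genes tested). Pdgfrb and Rgs5 were below the floor on the myr-Akt and c-Myc arrays, against 770 and 623 on the non-transformed array, and differed by -0.47 and -0.81 on the H-RasV12 array. Des was lower on the H-RasV12 array too (-2.29), besides the myr-Akt (-3.30) and c-Myc (-3.55, at the floor) arrays. Acta2 (-0.34, -0.78 and -0.40) and Hand2 (0.04, -0.83 and -0.43) stayed under 2-fold. Of 7 endothelial and 7 haematopoietic markers, 1 and 2 were above the floor on any array. The part of cell mixture in the values of the imprinted genes was not tested.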

How the data were processed

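RNA of 4 cultures was hybridised to 4 single-colour arrays, 1 per group, with groups taken from the labels. The deposited values are linear intensities per probe set. MAS5 is named in the submitters' processing notes, without a version. The 2% trimmed mean of the deposited values was 500.003.

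Arrays were brought to 1 trimmed mean, signals under 20% of it were raised to this floor, and log2 was computed. Of 45101 probe sets, 64 were controls, 34945 had 1 symbol, 932 several and 9160 none; those with 1 symbol were used, and 0 symbols changed against RefSeq. The brightest probe set on average represented a gene. Of 18193 genes, the 10679 that exceeded the floor somewhere were tested for a 2-fold difference. Named are the members, the other imprinted genes that differed 2-fold, up to 6 genes with the largest range in each further list, the 2 brightest of a marker list, and the 3 genes nearest to a member. Airn was named after its values were seen. So were the markers Alb, Afp, Hnf4a, Apoa1, Krt8, Dcn, Prrx1, Snai2, Thy1, Col1a1, Mmp2, S100a4, Twist1, Msln, Des, Pdgfrb and Rgs5. The members and lists were chosen with earlier results of these data known. Alternatives changed the floor, filter, scaling and choice of probe set. Python 3.11.15, pandas 2.3.3 and scipy 1.17.1 were used.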

Additional observations from a re-analysis of the deposited data

Results flagged for a closer look

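One probe set that the report does not use, because the annotation gives it both H19 and Mir675, the microRNA gene inside H19, was above the non-transformed level on the myr-Akt and c-Myc arrays and below it on the H-RasV12 array. Its signal was 3092 on the H-RasV12 array, 22278 on the myr-Akt array and 22710 on the c-Myc array, against 11194 on the non-transformed array. It was thus 1.99 and 2.03 times the non-transformed level for myr-Akt and c-Myc and 0.276 times for H-RasV12. The arrays stand in the order seen for Igf2. The signal is not assigned to either gene. A second such probe set, given to both Airn and Igf2r, was below the floor on all 4 arrays.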

How the results depend on the processing

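No paired analysis was possible because each group holds 1 array. Of 189 values of the 8 genes under the alternatives, 182 kept their side of 2-fold, 6 came under it and 1 passed it. The sign changed in 5, all of them differences far under 2-fold: Igf2r for c-Myc (-0.02 with quantile normalization and with scaling to the median) and Grb10 for myr-Akt (0.03 with scaling to the median), H-RasV12 (0.12) and c-Myc (0.08, both with the mean over probe sets). Those that came under it were Dlk1 for H-RasV12 (0.39 with a floor of 40%, 0.74 with a pseudocount, 0.58 with the mean over probe sets), Igf2 for myr-Akt (0.54 with that mean) and Plagl1 for c-Myc (0.85 with that mean, 0.84 without _s_at, _x_at and _a_at probe sets). For the 28 other imprinted genes, 611 values kept their side, 25 came under 2-fold and 6 passed it. Counts beyond 1.5 times those reported were as follows, and their cause was not tested beyond the smaller number of genes in the strict filter. With a floor of 40%, 0 members were higher for H-RasV12. With a pseudocount, 136 of all genes and 0 members were higher for H-RasV12, 3 other imprinted genes for myr-Akt and 298 of all genes for c-Myc. Among genes above the floor on every array, 104 were higher and 424 lower for H-RasV12, 891 lower for myr-Akt and 770 lower for c-Myc, and 1 other imprinted gene was higher for c-Myc. With the mean over probe sets, 0 members were higher, 436 of all genes lower and 0 other imprinted genes lower for H-RasV12; 341 of all genes and 1 member were higher and 3 other imprinted genes lower for myr-Akt; 293 of all genes and 1 other imprinted gene were higher and 3 other imprinted genes lower for c-Myc. Without _s_at, _x_at and _a_at probe sets, except for genes that have no other, 0 members were higher and 2 lower for H-RasV12, 1 was higher for c-Myc, and Dlk1 had no value, its remaining probe set being below the floor. Signals near the floor limit Dlk1 most. Quantile normalization, scaling to the median and a floor of 10% moved no count beyond 1.5 times.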
